A study of Rattus norvegicus with 32 samples.

Results

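The RNA of hippocampal CA3 neurons was compared between rats killed 4 h after a moderate fluid percussion traumatic brain injury (TBI) and rats killed 4 h after sham surgery. All 8 arrays labelled as saline plus TBI or as control at 4 h were taken, of 32 in the series, and they hold 4 of its 16 RNA pools. Each pool was hybridised to 2 arrays, whose values were averaged, so that TBI replicates 1 and 2 stood against sham replicates 1 and 2. All animals were Sprague-Dawley rats, adult males by the study's methods. TBI rats received saline subcutaneously before the injury. The labels call the sham rats untreated, whereas the methods give them saline too. By the labels the injection preceded injury by 90 min, a pool held 3 to 6 rats and time ran from the injection, while the methods give a shorter interval and run time from surgery. Neurons that did not stain with Fluoro-Jade, a dye of dying neurons, were cut out with a laser from the injured side of CA3, and their RNA was amplified in 2 rounds. The TBI pools thus hold the surviving neurons beside degenerating ones. Each value belongs to a pool of animals, so the spread between pools is not the spread between rats, and fewer cells of a type and less RNA per cell cannot be told apart.

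In fluid percussion injury a pulse of fluid strikes the exposed dura, and within minutes neurons are flooded with glutamate and calcium. Calcium and MAP kinase signals then switch on immediate early genes, whose promoters carry CArG boxes and cAMP response elements, and these in turn drive effector genes of synapse and peptide signalling. Damaged tissue also releases interleukin-1 and chemokines, largely under the control of NF-kB, and the adrenal glands release corticosteroids, which act on the dense glucocorticoid and mineralocorticoid receptors of the hippocampus.

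The promoters of 5 genes described further on are printed here, because each gene stood higher in both TBI pools and carries the element by which such genes are known to be switched on. They are the RefSeq windows of the GRCr8 rat assembly, 250 bases before to 50 bases after the start, read 5′ to 3′. Capitals mark the CArG boxes of Egr1, the cAMP response element TGACGTCA of Vgf, the kappa B sites of Cxcl1 and Nfkbia and the heat shock elements of Hspe1. These 5 genes were picked by level and element together, so they cannot show that an element goes with a higher level. Vim (kappa B) and Hs3st2 and Hsp90ab1 (cAMP response element) carry such elements too and did not stand higher in both TBI pools. Dusp5 (CArG box) and Rcan1 (cAMP response element) did.
Egr1 promoter, chr18:26736828-26737127, strand +: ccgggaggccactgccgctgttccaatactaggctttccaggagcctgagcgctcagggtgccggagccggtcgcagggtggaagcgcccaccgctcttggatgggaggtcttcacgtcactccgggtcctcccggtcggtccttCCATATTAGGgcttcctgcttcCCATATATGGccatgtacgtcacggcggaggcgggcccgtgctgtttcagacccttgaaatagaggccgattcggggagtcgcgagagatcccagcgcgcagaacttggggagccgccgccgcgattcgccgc
Vgf promoter, chr12:25276971-25277270, strand -: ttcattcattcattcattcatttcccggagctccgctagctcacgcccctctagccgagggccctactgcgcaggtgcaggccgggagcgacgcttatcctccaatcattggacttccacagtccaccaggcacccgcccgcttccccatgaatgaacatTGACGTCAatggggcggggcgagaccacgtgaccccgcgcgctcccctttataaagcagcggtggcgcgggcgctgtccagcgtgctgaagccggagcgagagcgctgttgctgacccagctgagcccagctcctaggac
Cxcl1 promoter, chr14:17479272-17479571, strand -: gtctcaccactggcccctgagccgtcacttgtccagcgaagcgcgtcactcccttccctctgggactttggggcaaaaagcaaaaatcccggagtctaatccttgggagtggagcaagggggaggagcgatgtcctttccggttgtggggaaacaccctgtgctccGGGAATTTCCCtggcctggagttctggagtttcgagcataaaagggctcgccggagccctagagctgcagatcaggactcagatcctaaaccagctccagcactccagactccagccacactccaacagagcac
Nfkbia promoter, chr6:78597023-78597322, strand -: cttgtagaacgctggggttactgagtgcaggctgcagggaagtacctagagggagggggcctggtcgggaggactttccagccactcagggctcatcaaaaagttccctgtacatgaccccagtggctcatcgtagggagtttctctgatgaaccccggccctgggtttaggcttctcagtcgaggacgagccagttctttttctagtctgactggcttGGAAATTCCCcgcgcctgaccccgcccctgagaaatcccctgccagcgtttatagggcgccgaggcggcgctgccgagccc
Hspe1 promoter, chr9:64084077-64084376, strand +: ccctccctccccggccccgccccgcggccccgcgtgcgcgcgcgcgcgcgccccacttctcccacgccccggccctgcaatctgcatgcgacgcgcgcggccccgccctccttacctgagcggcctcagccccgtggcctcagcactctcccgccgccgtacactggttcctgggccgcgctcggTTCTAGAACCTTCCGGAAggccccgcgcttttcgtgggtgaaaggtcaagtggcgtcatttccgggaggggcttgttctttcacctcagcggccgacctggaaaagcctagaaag

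The CArG boxes of Egr1 began 105 and 83 bases before the start and the cAMP response element of Vgf 90 bases before it. In Cxcl1 2 overlapping kappa B matches began 84 and 83 bases before the start, and in Nfkbia 1 match began 31 bases before it. Hspe1 held 2 overlapping heat shock elements. Among the genes tested, a CArG box was found in 36.4% of the 11 promoters matched for EGR, NR4A, KLF and other early factors, against 1.64% of all 33469 promoters of the same length. The cAMP response element was found in 20.8% of the 24 promoters of the early and effector genes together, against 1.83% of all. A kappa B match was found in 53.8% of the 13 promoters of NF-kB and innate immune genes and in 35.7% of the 28 promoters of the immune lists together, against 4.18% of all. The AP-1 element TGANTCA was found in 25% of the same 28 promoters and in 0 of the 24 early and effector promoters, against 7.33% of all. The heat shock element was found in 30% of 10 promoters of heat shock and chaperone genes, against 0.798% of all. Both strands were searched. In the 6849 promoters of all named genes tested, the shares were 1.18% for the CArG box and 3.1% for the cAMP response element. They were 4.69% for kappa B, 4.7% for AP-1 and 0.438% for the heat shock element. The lists were drawn up from genes known to answer to these factors, so the shares describe the lists and say nothing of the injury. Of the 1169 genes that stood over 2-fold higher with separate pools, 969 had a promoter. Of these 4.75% held a kappa B match and 1.03% a CArG box, close to the 4.69% and 1.18% of all named genes tested.

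Levels are given as multiples of the median spot of the array. The array medians were 50.8 to 51.6 intensity units in TBI replicate 1 and 23.3 to 23.8 in TBI replicate 2, against 24.6 to 30.1 in the sham pools, and 47.4% to 61.7% of spots on the TBI arrays and 50.1% to 53% of those on the sham arrays lay above background. The sham pools and TBI replicate 1 lay in the same slide run, and TBI replicate 2 lay in another, so for TBI replicate 2 slide run and injury cannot be told apart. Over the 17661 probes kept, the log2 levels of TBI replicate 1 correlated with those of the sham pools at r = 0.926 and 0.922 and those of TBI replicate 2 at r = 0.809 and 0.864, whereas the 2 TBI pools correlated at r = 0.863 and the 2 sham pools at r = 0.918. TBI replicate 1 was thus closer to the sham pools than to the other TBI pool. Duplicate arrays of a pool, which shared a slide run, correlated at 0.985 to 0.997. The gap between the TBI pools is wider than that between such duplicates. Duplicates within a run cannot measure noise between runs, and the TBI pools lie in different runs.

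With 2 pools a side, no probe passed an adjusted p of 0.05 between TBI and sham (limma over all 8 groups, Benjamini-Hochberg over 17639 probes, 0% called), and 591 probes (3.35%) had an unadjusted p under 0.05. For TBI replicate 1 against the sham pools 0 of 17638 probes (0%) were called and 202 (1.15%) had an unadjusted p under 0.05. For TBI replicate 2 47 of 17623 probes (0.267%) were called and 1593 (9.04%) had an unadjusted p under 0.05. Each of these tests sets 1 pool against sham and takes its spread from the other groups, so that the lone pool is assumed to vary as they do. The 47 calls became 0 in a fit of TBI and sham alone, 0 with a floor of 0.5, 0 without sham replicate 1 and 10 without sham replicate 2, and every call of TBI replicate 2 given below is subject to this. The gene values below are therefore descriptions, and "higher" and "lower" state where pools lay. The adjusted p of the genes given below was 0.479 or more in the comparison of all 4 pools (limma), and that of a second probe for Ccl4 and for Pcolce was 0.0952. Log2 differences are TBI minus sham, with the standard error of the fit. Where 1 of a group's pools was not above background on either array, its printed level is no measurement and no log2 difference over both pools is given here. This holds for sham replicate 1 in Lcn2, Cd14, Fosl1, Gadd45a, Cntf and Hk2, for sham replicate 2 in Gem and Bax, for TBI replicate 2 in Fscn2, Tek, Nr3c1, Atf6, Dnajb9, Penk and Kcnk2, and for TBI replicate 2 and sham replicate 2 in Igf1.

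Most genes lay higher in the TBI pools on this scale. Of 8271 genes with a name, each read from the probe with the highest mean over the 16 pools, 5994 (72.5%) had a higher mean in TBI, and the median log2 difference was 0.38. Under quantile normalization that median was 0.05, so gene groups are set against the median of all named genes. A gene is called separate here when its mean differed over 2-fold and both TBI pools lay on the same side of both sham pools. That held for 1169 genes (14.1%) higher and 210 genes (2.54%) lower in TBI. Against the sham pools TBI replicate 1 alone lay over 2-fold outside both in 805 genes (9.73%) higher and 228 (2.76%) lower, and TBI replicate 2 alone in 2367 genes (28.6%) higher and 726 (8.78%) lower. Under quantile normalization 366 genes (4.43%) were separate and higher and 332 (4.01%) separate and lower. Over all probes, 68.4% of those over 2-fold apart were higher in TBI, against 41.0% under quantile normalization and 37.7% with scaling to the 75th percentile. A probe was kept if some group of the series had it above background on each of its 4 arrays. A probe could thus enter through the TBI arrays alone, or through the sham arrays alone. The gene lists and their members were chosen with earlier results of these data known, so the shares of a list are descriptions and no test of it.

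**Figure D1:**
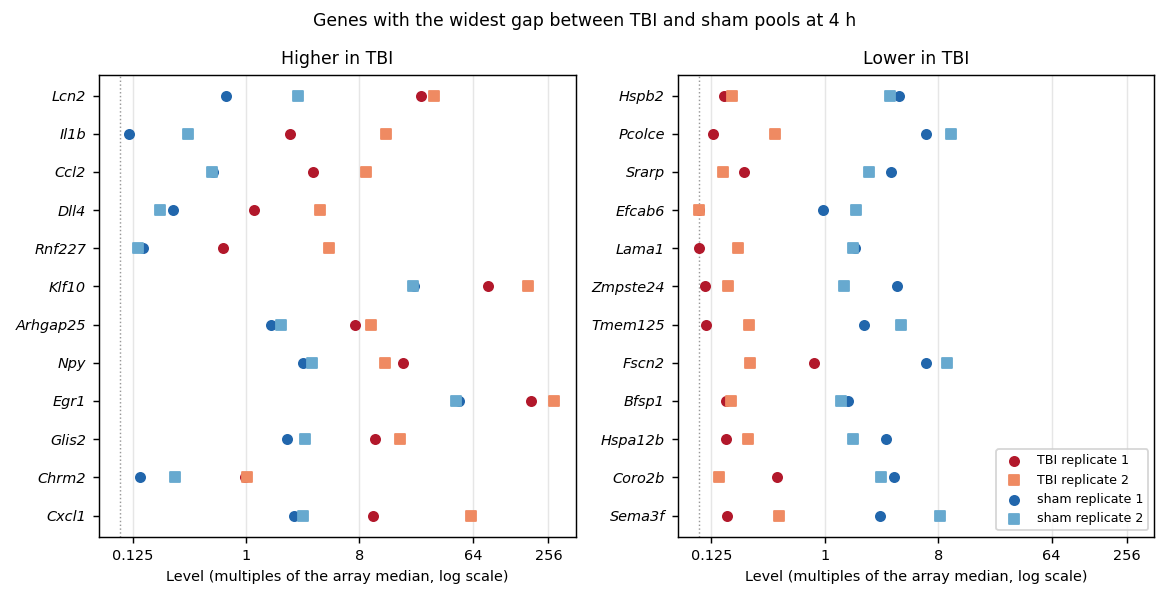
Levels of the 12 genes with the widest gap upward (left) and the 12 with the widest gap downward (right) between the nearest TBI and sham pools at 4 h, in multiples of the array median on a log axis, 1 point per pool, with the dotted line at the floor of 0.1. The TBI points of Lcn2 lie at 24.8 and 31.4 and its sham points at 0.689 and 2.58, and the genes on the right lie close to the floor in the TBI pools.

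Il1b and several chemokines stood higher in both TBI pools. Of 23 inflammatory cytokines and chemokines listed, 22 were on the array and 13 passed the filter and were tested. Of the 13 tested, 6 (46.2%, against 14.1% of all named genes) were separate and higher and 0 lower. The same count was 6 in TBI replicate 1 alone (9.73% of all genes), 7 in TBI replicate 2 alone (28.6% of all) and 6 under quantile normalization (4.43% of all). Il1b, the main interleukin-1 of acute inflammation, stood at 2.25 and 13.1 in the TBI pools, against 0.117 and 0.347 in the sham pools, where it was not above background. Set against the lowest signal above background there, the TBI mean was at least 7.11-fold higher. TBI replicate 1 alone was at least 2.95-fold and TBI replicate 2 alone at least 17.1-fold higher, and the test of TBI replicate 2 gave an adjusted p of 0.0353 (limma), a call of 1 pool with the limits given above.

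Ccl2, which draws monocytes, stood at 3.40 and 9.09 in the TBI pools, against 0.547 and 0.540 in the sham pools, at least 7.29-fold higher since sham was not above background. Ccl7, a chemokine of the same receptor, stood at 5.47 and 82.0 in the TBI pools, against 1.01 and 2.16 in the sham pools (log2 difference 3.84 ± 1.14). Cxcl1, which draws neutrophils and whose kappa B matches are printed above, stood at 10.2 and 61.5 in the TBI pools, against 2.41 and 2.84 in the sham pools (3.26 ± 1.15). In all of these genes both TBI pools lay above both sham pools, and TBI replicate 2 lay over 2-fold above TBI replicate 1.

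Ccl4, a chemokine of macrophages and T cells, was measured by 2 probes. The probe with the higher mean stood at 2.00 and 3.89 in the TBI pools, against 0.563 and 0.596 in the sham pools, at least 3.55-fold higher. The other probe stood at 5.03 and 10.2 in the TBI pools, against 0.167 and 0.241 in the sham pools, at least 9.40-fold higher, with the smallest p of all probes (8.33e-06, adjusted p = 0.0952, limma). Ccl4 and Il1a were added after their values were seen, since their second probes have wide gaps, that of Ccl4 wider than any in the plot of widest gaps. A second probe of Il1a, interleukin-1 alpha, stood at 1.18 and 4.93 in the TBI pools, against 0.206 and 0.309 in the sham pools, whereas the probe used for the gene stood at 2.70 and 5.36 in the TBI pools, against 3.91 and 3.14 in the sham pools. Probes of a gene need not measure the same transcripts, and 453 of the 1272 genes with several probes (35.6%) had probes that differed in sign.

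Of 25 genes of NF-kB and innate immune signalling 16 were tested, and 13 had a higher and 3 a lower mean in TBI. Separate and higher were 7 (43.8%, against 14.1% of all) and 0 were lower. The higher count was 6 in TBI replicate 1 alone (9.73% of all), 8 in TBI replicate 2 alone (28.6% of all) and 6 under quantile normalization (4.43% of all). Cd14, the co-receptor for bacterial lipopolysaccharide, stood at 10.6 and 18.2 in the TBI pools, against 4.66 in sham replicate 2, while sham replicate 1 was not above background, so that the sham pools were far apart. Nfkbia, the inhibitor of NF-kB that NF-kB itself induces, stood at 24.1 and 65.4 in the TBI pools, against 12.7 and 13.8 in the sham pools (1.58 ± 0.80). Birc3, an NF-kB target that blocks cell death, stood at 3.43 and 6.60 in the TBI pools, against 1.19 and 1.48 in the sham pools. Sele, the endothelial selectin that catches leukocytes, stood at 0.908 and 2.08 in the TBI pools, against 0.124 and 0.794 in the sham pools, at least 1.79-fold higher.

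Of 22 acute phase and extracellular protease genes 9 were tested, with 8 means higher and 1 lower in TBI. Separate and higher were 4 (44.4%, against 14.1% of all) and lower 1 (11.1%, against 2.54% of all), and 3 were separate and higher under quantile normalization (4.43% of all). Lcn2, an iron-binding acute phase protein, had the widest upward gap of the named genes, with levels of 24.8 and 31.4 in the TBI pools, against 0.689 and 2.58 in the sham pools, of which replicate 1 was not above background on either array. Here the TBI pools lay close together. Adamts1 stood at 6.28 and 15.7 in the TBI pools, against 0.995 and 2.40 in the sham pools, and Mmp9, the gelatinase that opens the basement membrane, at 6.83 and 12.1, against 2.41 and 1.85. Tnc, the matrix protein tenascin-C, was not above background in the TBI pools and stood at 2.31 and 1.12 in the sham pools, at least 2.56-fold lower in TBI. The medians of the 3 immune lists exceeded that of all named genes by 0.35 for cytokines and chemokines, 0.42 for NF-kB genes and 0.62 for acute phase genes on the log2 scale, and by 0.37, 0.40 and 0.73 under quantile normalization. Of 13 JAK, STAT3 and SOCS genes only 4 were tested. Il6r, the interleukin-6 receptor, was the single one separate and higher (25%, against 14.1% of all). It lay 1.49-fold above sham in TBI replicate 1 and 3.96-fold in TBI replicate 2. Under quantile normalization 0 of the list were separate and higher (4.43% of all). The log2 difference of Stat3 from sham was 1.40 in TBI replicate 1 and -1.19 in TBI replicate 2.

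Microglia and macrophages usually make many of these proteins. Of 16 of their markers 9 were tested, and 2 had a higher and 7 a lower mean in TBI. Separate and higher were 0 (14.1% of all) and lower 1 (11.1%, against 2.54% of all). The median of the markers lay 0.81 below that of all named genes (0.44 below under quantile normalization). Their summed level was 48.9 and 65.2 in the TBI pools, against 61.0 and 168 in the sham pools, so the groups overlapped. Much of it came from Csf1r, the growth factor receptor on which microglia depend. Csf1r stood at 19.2 and 27 in the TBI pools, against 34.1 and 102 in the sham pools, lower by both of its probes. Only 3 of 13 blood cell markers were tested, with summed levels of 4.09 and 6.91 in the TBI pools, against 3.61 and 12.2 in the sham pools. Of the astrocyte markers 11 of 13 were tested, and their summed level was 569 and 1362 in the TBI pools, against 483 and 918 in the sham pools, so that TBI replicate 2 was the highest. The part of these cells in the immune gene levels was not tested.

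**Figure D2:**
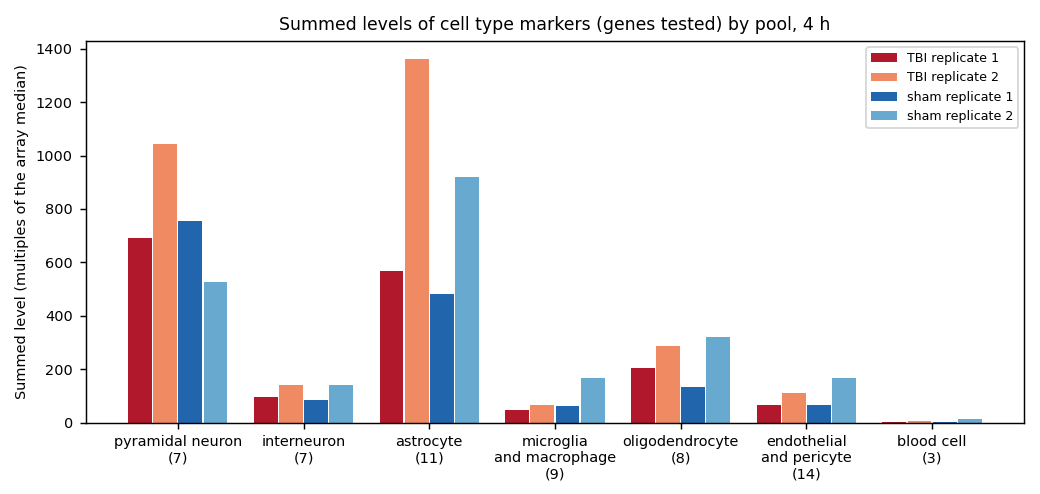
Summed levels of cell type markers in each pool at 4 h, in multiples of the array median, with the number of markers tested under each name and 1 bar per pool. Microglia and macrophage markers sum to 48.9 and 65.2 in the TBI pools and to 61.0 and 168 in the sham pools, and astrocyte markers are highest in TBI replicate 2.

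Markers of the labelled cell type were present. Of 14 pyramidal neuron markers 7 were tested and 6 were above background on all 8 arrays. Grik4, a kainate receptor subunit enriched in CA3, stood at 230.2 and 229.8 in the TBI pools, against 251 and 202 in the sham pools, and Slc17a7, the vesicular glutamate transporter, at 20.2 and 26, against 20.8 and 22.9. Their levels overlapped between the groups. Prox1 is counted in this list too, although it marks dentate granule cells. It stood at 5.84 and 5.80 in the TBI pools, against 12.1 and 11 in the sham pools. All 11 astrocyte markers tested and 7 of 8 oligodendrocyte markers were above background on all 8 arrays too, so the captures hold RNA of other cells in both groups.

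Egr1, Egr4 and Klf10 stood higher in both TBI pools. Of 20 EGR, NR4A, KLF and other early factors 14 were tested, and 10 had a higher and 4 a lower mean in TBI. Separate and higher were 7 (50%, against 14.1% of all) and lower 1 (7.1%, against 2.54% of all), with 5 higher under quantile normalization (4.43% of all). Egr1, the zinc finger factor whose CArG boxes are printed above, stood at 185 and 283 in the TBI pools, against 49.4 and 46.6 in the sham pools (2.26 ± 0.98). Egr4, of the same family, stood at 82.5 and 105 in the TBI pools, against 25.6 and 20.9 in the sham pools (2.01 ± 0.63). Klf10 stood at 85.0 and 176 in the TBI pools, against 21.6 and 21.3 in the sham pools, although a second probe went the other way. In all 3 the sham pools lay close together and the lower TBI pool was over 2-fold above them. Klf4, named after its values were seen, was the separate and lower one, at 2.67 and 3.17 in the TBI pools, against 7.21 and 7.73 in the sham pools (-1.36 ± 0.89). Ier3, an early response gene that NF-kB also induces, stood at 11.4 and 16.7 in the TBI pools, against 1.74 and 7.70 in the sham pools.

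Of 6 AP-1 and ATF factors tested, Fos alone (16.7%, against 14.1% of all) was separate and higher by over 2-fold. Fos stood at 37.1 and 25.9 in the TBI pools, against 1.83 and 13.0 in the sham pools (2.67 ± 1.05), and a second Fos probe did not lie higher. Jun, its dimer partner, stood at 13.8 and 12.5 in the TBI pools, against 7.53 and 7.77 in the sham pools (0.78 ± 0.57), and Atf3, which marks stressed and axotomised neurons, at 5.79 and 10.1, against 3.06 and 6.49. Fosl1 stood at 0.771 and 1.69 in the TBI pools, against 0.331 and 1.12 in the sham pools. In Jun the groups did not overlap, while in Atf3 and Fosl1 the lower TBI pool lay below the higher sham pool.

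The activity-regulated effector genes had the highest median of all lists described. Of 24 listed 13 were tested, all 13 had a higher mean in TBI against 72.5% of all named genes, and 7 (53.8%, against 14.1% of all) were separate and higher. The count was 6 in TBI replicate 1 alone (9.73% of all), 12 in TBI replicate 2 alone (28.6% of all) and 3 under quantile normalization (4.43% of all). Their median lay 0.92 above that of all named genes. Rgs2, which damps G protein signals, stood at 92.3 and 175 in the TBI pools, against 23.0 and 30.7 in the sham pools (2.26 ± 0.98). Ptgs2, the inducible cyclooxygenase of prostaglandin synthesis, stood at 36.7 and 43.3 in the TBI pools, against 9.87 and 12.5 in the sham pools (1.85 ± 0.81). Gem, a small GTPase that lowers calcium channel activity, stood at 2.30 and 4.23 in the TBI pools, against 0.864 and 0.453 in the sham pools. Cdkn1a, the p53 target p21, stood at 20.0 and 29.7 in the TBI pools, against 4.07 and 20.9 in the sham pools, so its groups overlapped.

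All 13 of the dual-specificity phosphatases and MAP kinases tested had a higher mean in TBI, against 72.5% of all named genes. Of these 4 (30.8%, against 14.1% of all) were separate by over 2-fold, and 1 under quantile normalization (4.43% of all). The count was 3 in TBI replicate 1 alone (9.73% of all) and 5 in TBI replicate 2 alone (28.6% of all). Dusp5, a nuclear phosphatase of ERK, stood at 16.1 and 15.3 in the TBI pools, against 7.32 and 8.35 in the sham pools (1.01 ± 0.44, higher by both probes). Mapk14, the p38 kinase, stood at 32.8 and 46.4 in the TBI pools, against 13.9 and 13.1 in the sham pools. Map2k1, the kinase above ERK, stood at 83.7 and 80.3 in the TBI pools, against 42.3 and 36.5 in the sham pools.

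**Figure D3:**
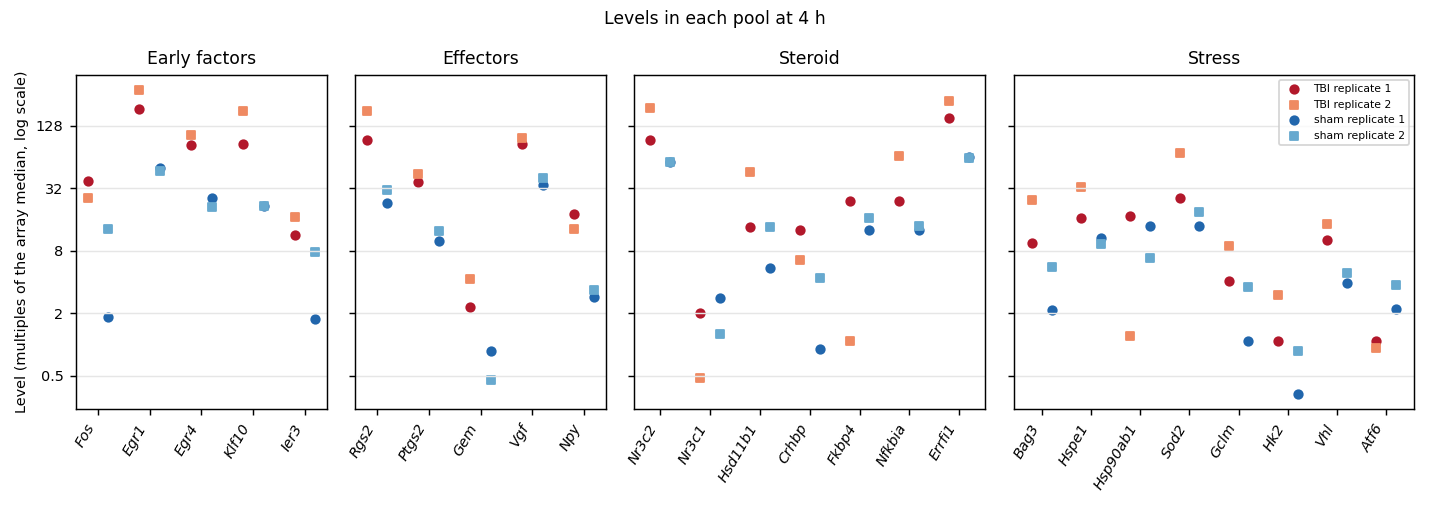
Levels of early factors, effector and peptide genes, corticosteroid genes and stress genes in each pool at 4 h, in multiples of the array median on a log axis, 1 point per pool with the TBI pools left of the sham pools. Egr1 lies at 185 and 283 in the TBI pools and at 49.4 and 46.6 in the sham pools, whereas Fkbp4 and Hsp90ab1 are lowest in TBI replicate 2 and highest in TBI replicate 1.

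The corticosteroid genes are given whole, since by the study's account both of its drugs, metyrapone and carbenoxolone, inhibit 11-beta-hydroxysteroid dehydrogenase type 1. Of 8 listed 5 were tested. Hsd11b1, the enzyme that regenerates active glucocorticoid inside cells, stood at 13.4 and 45.7 in the TBI pools, against 5.48 and 13.4 in the sham pools (1.53 ± 0.88). TBI replicate 1 lay level with the higher sham pool, so the higher mean rests on TBI replicate 2. Nr3c2, the mineralocorticoid receptor, stood at 93.7 and 189 in the TBI pools, against 56.9 and 56.6 in the sham pools (1.23 ± 0.98), without overlap. Nr3c1, the glucocorticoid receptor, stood at 1.98 and 0.479 in the TBI pools, against 2.78 and 1.26 in the sham pools, with overlap and TBI replicate 2 not above background.

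Fkbp4, a chaperone of steroid receptors, stood at 23.8 and 1.09 in the TBI pools, against 12.6 and 16.4 in the sham pools. Its 2 TBI pools lay on opposite sides of sham, 0.73 above in TBI replicate 1 and 3.73 below in TBI replicate 2 on the log2 scale. Crhbp, which binds corticotropin-releasing hormone, stood at 12.6 and 6.45 in the TBI pools, against 0.909 and 4.37 in the sham pools (2.18 ± 1.15).

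Of 18 glucocorticoid-induced genes 12 were tested, 11 had a higher mean in TBI and 4 (33.3%, against 14.1% of all) were separate and higher, also 4 under quantile normalization (4.43% of all). Errfi1, an inhibitor of the EGF receptor, stood at 153 and 218 in the TBI pools, against 63.8 and 62.6 in the sham pools (1.53 ± 0.98). Cebpd stood at 16.0 and 30.6 in the TBI pools, against 6.46 and 8.06 in the sham pools. Angptl4 was not above background in the sham pools and stood at 1.15 and 1.48 in the TBI pools, at least 1.70-fold higher. Nfkbia, Cebpd and others of this list answer to NF-kB as well, so the list does not tell the pathways apart.

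Of 11 heat shock and chaperone genes tested 4 (36.4%) were separate and higher, of 15 NRF2 and antioxidant genes 5 (33.3%) and of 13 hypoxia response genes 6 (46.2%), against 14.1% of all, with 0 lower in each. The counts were 3, 2 and 4 in TBI replicate 1 alone (9.73% of all), 6, 7 and 8 in TBI replicate 2 alone (28.6% of all) and 2, 1 and 3 under quantile normalization (4.43% of all). Bag3, a co-chaperone of the heat shock response, stood at 9.42 and 24.7 in the TBI pools, against 2.12 and 5.55 in the sham pools (2.15 ± 1.16). Hspe1, the mitochondrial chaperonin whose heat shock elements are printed above, stood at 16.6 and 32.9 in the TBI pools, against 10.5 and 9.27 in the sham pools (1.24 ± 1.33). Hsp90ab1, the constitutive HSP90, stood at 17.2 and 1.21 in the TBI pools, against 13.7 and 6.79 in the sham pools, again with the TBI pools on opposite sides.

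Sod2, the mitochondrial superoxide dismutase and an NF-kB target, stood at 25.8 and 68.9 in the TBI pools, against 13.9 and 18.7 in the sham pools, higher by all 3 of its probes. Sod1, its cytosolic counterpart, stood at 25.7 and 34.8 in the TBI pools, against 12.2 and 10.2 in the sham pools, and Gclm, of glutathione synthesis, at 4.11 and 8.79, against 1.09 and 3.58. Among hypoxia genes Hk2, the first enzyme of glycolysis, stood at 1.07 and 2.98 in the TBI pools, against 0.335 and 0.871 in the sham pools. Vhl, which marks HIF for breakdown, stood at 10.2 and 14.6 in the TBI pools, against 3.88 and 4.82 in the sham pools. In each of these 5 genes both TBI pools lay above both sham pools.

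Of 10 integrated stress response genes tested 5 had a higher and 5 a lower mean in TBI. Separate and higher were 0 (14.1% of all) and lower 2 (20%, against 2.54% of all). The lower count was 1 in TBI replicate 1 alone (2.76% of all), 2 in TBI replicate 2 alone (8.78% of all) and 2 under quantile normalization (4.01% of all). Whether this list differs from the other stress lists was not tested. Atf6, the sensor of endoplasmic reticulum stress, was lower by both probes. It stood at 1.07 and 0.926 in the TBI pools, against 2.21 and 3.71 in the sham pools. Dnajb9, a chaperone of the endoplasmic reticulum, stood at 2.82 and 0.875, against 4.66 and 3.14. In TBI replicate 2 neither gene was above background, and there Atf6 was at least 1.88-fold and Dnajb9 at least 4.01-fold lower. In TBI replicate 1 Atf6 was 2.66-fold and Dnajb9 1.35-fold lower. Atf4, the central factor of the response, stood at 26.7 and 29.1 in the TBI pools, against 12.5 and 16.4 in the sham pools (0.96 ± 0.98), and its target Ddit3 at 43.7 and 76.7, against 32.0 and 33.3. Both were higher without overlap and under 2-fold.

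Of 20 BCL2 family, caspase and death receptor genes tested 5 (25%, against 14.1% of all) were separate and higher and 0 lower. The higher count was 2 in TBI replicate 1 alone (9.73% of all), 8 in TBI replicate 2 alone (28.6% of all) and 1 under quantile normalization (4.43% of all), and the median lay 0.04 below that of all named genes. Ripk1, a kinase of the TNF receptor, stood at 0.802 and 2.42 in the TBI pools and was not above background in the sham pools, at least 1.83-fold higher. Cycs, cytochrome c, stood at 17.4 and 33.7 in the TBI pools, against 10.9 and 10.3 in the sham pools. Bax stood at 0.724 and 1.59 in the TBI pools, against 0.893 and 0.180 in the sham pools, with overlap. Of 9 p53 targets tested Gadd45a and Mdm2 (22.2%, against 14.1% of all) were separate. Gadd45a stood at 2.25 and 3.27 in the TBI pools, against 0.597 and 1.54 in the sham pools, and Mdm2 at 40.8 and 62.5, against 17.6 and 19.9, but a second Mdm2 probe went the other way.

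**Figure D4:**
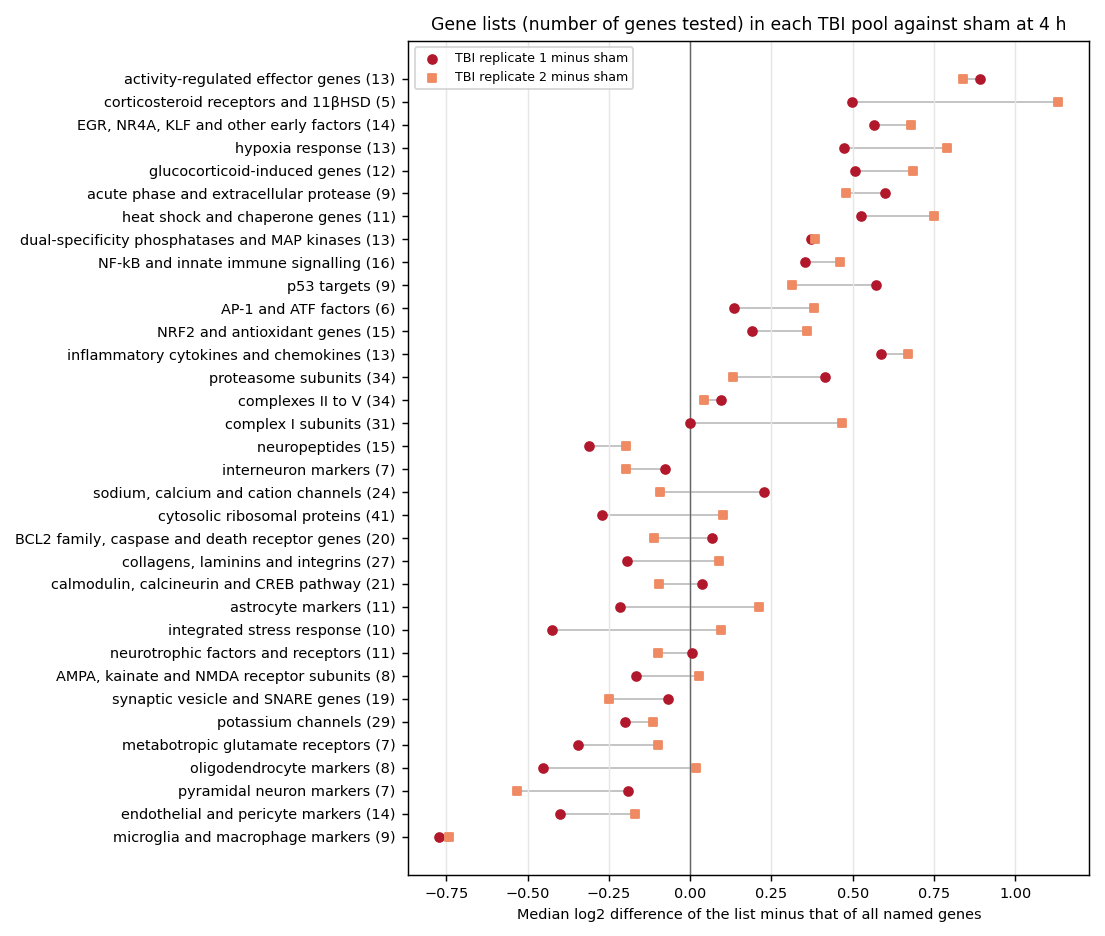
Median log2 difference of each gene list with at least 5 genes tested, minus the median of all named genes, for TBI replicate 1 (circles) and TBI replicate 2 (squares) against the sham pools, with the number of genes tested in brackets. Effector genes lie highest in the order of the means over both pools, with 0.89 and 0.84, and microglia and macrophage markers lowest, with -0.77 and -0.74.

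Of 15 neuropeptide genes tested 10 had a higher and 5 a lower mean in TBI. Separate and higher were 4 (26.7%, against 14.1% of all) and lower 1 (6.7%, against 2.54% of all), with 2 higher and 1 lower under quantile normalization (4.43% and 4.01% of all). Their median lay 0.05 above that of all named genes over both pools, but 0.31 below it in TBI replicate 1 and 0.20 below it in TBI replicate 2. Npy, the peptide that damps excitation, stood at 17.9 and 12.9 in the TBI pools, against 2.84 and 3.36 in the sham pools (2.29 ± 0.63), with close pools on both sides. Tac1, the precursor of substance P, stood at 24.9 and 39.8 in the TBI pools, against 5.45 and 14.6 in the sham pools, and Vgf, whose cAMP response element is printed above, at 85.8 and 97.7, against 34.5 and 40.2. Penk, the enkephalin precursor, stood at 4.73 and 0.156 in the TBI pools, against 5.58 and 5.19 in the sham pools, so that TBI replicate 2 alone was low.

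Of 11 neurotrophic factors and receptors tested 2 (18.2%, against 14.1% of all) were separate and higher and 1 (9.1%, against 2.54% of all) lower. Cntf, a survival factor of the interleukin-6 family, stood at 4.70 and 3.48 in the TBI pools, against 0.259 and 2.22 in the sham pools. Ntrk2, the BDNF receptor, stood at 18.5 and 18 in the TBI pools, against 5.72 and 11.3 in the sham pools, higher by 2 of 3 probes. Igf1 stood at 0.539 and 0.387 in the TBI pools, against 1.85 and 0.865 in the sham pools.

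Glutamate receptor subunits lay near the median of all genes. Of 8 AMPA, kainate and NMDA receptor subunits tested 0 were separate by over 2-fold, against 14.1% of all higher and 2.54% lower. Gria2, the AMPA subunit that keeps calcium out, stood at 212 and 413 in the TBI pools, against 208 and 193 in the sham pools (0.56 ± 0.73), and Grin2b, an NMDA subunit, at 6.41 and 12.1, against 4.64 and 5.84. Of 7 metabotropic receptors tested 2 (28.6%, against 14.1% of all) were separate and higher. Grm4 stood at 11.6 and 4.41 in the TBI pools, against 2.43 and 4.22 in the sham pools. Of 4 GABA-A receptor subunits tested 0 were separate. Chrm2, a muscarinic receptor, was not above background in the sham pools and stood at 0.977 and 1.03 in the TBI pools, at least 1.31-fold higher.

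Of 29 potassium channel genes tested 1 (3.4%, against 14.1% of all) was separate and higher and 2 (6.9%, against 2.54% of all) lower. Kcnd3, a channel of the A-type current, stood at 18 and 2.22 in the TBI pools, against 24.2 and 38.0 in the sham pools, although 1 of its 3 probes was higher. Kcnk2, a background channel opened by stretch, stood at 1.28 and 0.503 in the TBI pools, against 1.5 and 5.40 in the sham pools, lower by both probes. Of 24 sodium, calcium and cation channel genes 5 (20.8%, against 14.1% of all) were separate and higher and 0 lower. The higher count was 7 in TBI replicate 1 alone (9.73% of all), 4 in TBI replicate 2 alone (28.6% of all) and 1 under quantile normalization (4.43% of all). Cacna2d2, an auxiliary subunit of calcium channels, stood at 3.39 and 7.24 in the TBI pools, against 0.768 and 2.75 in the sham pools (1.77 ± 0.65). Asic2, an acid-sensing channel, stood at 21.6 and 49.2 in the TBI pools, against 14.3 and 13.8 in the sham pools.

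Of 19 synaptic vesicle genes tested 1 (5.3%, against 14.1% of all) was separate and higher. It was Sv2b, with 42.8 and 97.5 in the TBI pools, against 28.0 and 23.9 in the sham pools. Syt4 stood at 35.8 and 5.33 in the TBI pools, against 106 and 21.0 in the sham pools, so both groups were wide and overlapped. Of 21 calmodulin, calcineurin and CREB pathway genes 3 (14.3%, against 14.1% of all) were separate and higher and 0 under quantile normalization. Rcan1, the calcium-induced inhibitor of calcineurin, stood at 32.6 and 66.0 in the TBI pools, against 21.1 and 20.8 in the sham pools (1.15 ± 0.68), and Pde4b, which breaks down cAMP, at 74.2 and 108, against 36.0 and 40.0.

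Of 34 proteasome subunits tested 8 (23.5%, against 14.1% of all) were separate and higher and 0 lower. The higher count was 7 in TBI replicate 1 alone (9.73% of all), 12 in TBI replicate 2 alone (28.6% of all) and 0 under quantile normalization (4.43% of all). Psmd9 stood at 7.50 and 10.9 in the TBI pools, against 3.51 and 3.39 in the sham pools (1.39 ± 0.67). Psma3 stood at 4.73 and 13.4 in the TBI pools, against 2.86 and 2.94 in the sham pools. Of 31 complex I genes 5 (16.1%, against 14.1% of all) were separate and higher. The count was 1 in TBI replicate 1 alone (9.73% of all), 16 in TBI replicate 2 alone (28.6% of all) and 2 under quantile normalization (4.43% of all). Ndufa1 was far higher in TBI replicate 2, with 48.4 and 179 in the TBI pools, against 42.0 and 39.7 in the sham pools. Of 34 genes of complexes II to V 5 (14.7%, against 14.1% of all) were separate and higher, with 3 in TBI replicate 1 alone (9.73% of all), 9 in TBI replicate 2 alone (28.6% of all) and 1 under quantile normalization (4.43% of all). Uqcrfs1 stood at 19.4 and 22.6 in the TBI pools, against 8.42 and 9.56 in the sham pools. Of 41 cytosolic ribosomal protein genes 1 (2.4%, against 14.1% of all) was separate and higher, Rps9, and 1 (2.4%, against 2.54% of all) lower, Rpl37l1. The median of the ribosomal genes lay 0.03 below that of all named genes.

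Several genes of the vessel wall and matrix were lower in both TBI pools, while others of the same lists were higher. How many genes were lower depended on the scaling: over all probes 627 were separate and lower and 2478 higher on the array median scale, against 858 and 886 under quantile normalization and 988 and 792 with the 75th percentile. Of 14 endothelial and pericyte markers tested 7 had a higher and 7 a lower mean in TBI. Separate and lower were 3 (21.4%, against 2.54% of all) and higher 1 (7.1%, against 14.1% of all). Tek, the angiopoietin receptor of endothelial cells, stood at 0.916 and 0.286 in the TBI pools, against 4.83 and 7.73 in the sham pools, at least 6.57-fold lower in TBI replicate 2, which was not above background. Pdgfrb, the receptor that marks pericytes, was not above background in the TBI pools and stood at 0.963 and 2.16 in the sham pools, at least 2.24-fold lower in TBI. Hspa12b, an endothelial HSP70 relative, was likewise not above background in the TBI pools and stood at 3.10 and 1.66 in the sham pools, at least 3.61-fold lower. Dll4, the Notch ligand of sprouting vessels, went the other way, at 1.15 and 3.91 in the TBI pools and not above background in the sham pools, at least 2.78-fold higher. The summed level of these markers was 67.3 and 109 in the TBI pools, against 65.6 and 168 in the sham pools, which overlapped.

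Pcolce, an enhancer of procollagen processing, was not above background in the TBI pools by either probe. By the probe used it stood at 6.42 and 10.1 in the sham pools, at least 12.8-fold lower in TBI, and by the other at 3.78 and 5.90, at least 7.52-fold lower (adjusted p = 0.0952, limma). Lama1, a laminin chain, was not above background in the TBI pools, against 1.75 and 1.68 in the sham pools, at least 2.73-fold lower. Of 27 collagens, laminins and integrins tested 18 had a higher and 9 a lower mean in TBI. Separate and lower were 2 (7.4%, against 2.54% of all), Lama1 and Itga1, and higher 3 (11.1%, against 14.1% of all). Among the higher was Col6a3, with 2.14 and 16.5 in the TBI pools, against 1.11 and 0.967 in the sham pools. Vim, the filament of astrocytes and vessel cells, stood at 5.79 and 21.2 in the TBI pools, against 39.4 and 30.5 in the sham pools (-1.65 ± 0.69), while Gfap, the astrocyte filament, stood at 10.2 and 15.3, against 3.77 and 6.80 (1.30 ± 0.54).

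Of the other genes with the widest downward gaps, all but Fscn2 were not above background on any TBI array. Hspb2, a small heat shock protein of muscle, stood at 3.92 and 3.30 in the sham pools, at least 5.73-fold lower in TBI. Srarp stood at 3.35 and 2.26 in the sham pools (at least 4.38-fold), Tmem125 at 2.07 and 4.05 (at least 4.61-fold) and Efcab6 at 0.959 and 1.77 (at least 2.08-fold). Zmpste24, the protease that matures lamin A, stood at 3.73 and 1.41 in the sham pools (at least 3.65-fold), Sema3f, a repulsive guidance cue, at 2.76 and 8.29 (at least 7.62-fold), Coro2b, an actin-binding coronin, at 3.57 and 2.78 (at least 4.91-fold) and Bfsp1, a filament protein known from the lens, at 1.52 and 1.35 (at least 2.28-fold). Fscn2, an actin bundler, was measured in TBI replicate 1, at 0.826, and not above background in TBI replicate 2, against 6.38 and 9.40 in the sham pools, at least 8.32-fold lower in TBI replicate 2.

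Upward, the plot of widest gaps also holds genes of no list. Glis2, a zinc finger repressor, stood at 10.7 and 17.0 in the TBI pools, against 2.11 and 2.94 in the sham pools (2.43 ± 0.59). Arhgap25, a Rac regulator known from blood cells, stood at 7.44 and 9.90 in the TBI pools, against 1.60 and 1.91 in the sham pools (2.30 ± 0.85). Rnf227 was not above background in the sham pools and stood at 0.659 and 4.6 in the TBI pools, at least 2.29-fold higher, and passed the test in TBI replicate 2 alone (at least 6.04-fold, adjusted p = 0.0352, limma). A second probe of Zfx, a zinc finger factor, stood at 5.41 and 4.82 in the TBI pools, against 0.259 and 0.457 in the sham pools, whereas the probe used stood at 2.66 and 3.79 in the TBI pools, against 1.81 and 2.93 in the sham pools. Zfx, too, was added after its values were seen.

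The TBI pools did not agree in direction for many genes: 2972 of 8271 (35.9%) lay above the sham mean in one TBI pool and below it in the other. Of the 47 probes called in TBI replicate 2 alone, 41 were lower and 6 higher, and 20 carry a gene name. Of the 41 lower ones 37 were not above background on either array of TBI replicate 2, and all 41 were above background on both arrays of TBI replicate 1. Their median log2 difference from sham was -5.38 in TBI replicate 2 and -0.31 in TBI replicate 1, and 11 of the 47 were over 2-fold the same way in TBI replicate 1.

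Plpp3, a lipid phosphatase of astrocytes, stood at 10.1 in TBI replicate 1 and was not above background in TBI replicate 2, against 13.6 and 15.7 in the sham pools, at least 15.7-fold lower in TBI replicate 2 (adjusted p = 0.0195, limma). Hs3st2, a heparan sulfate sulfotransferase of neurons, stood at 15.1 in TBI replicate 1 and at the floor in TBI replicate 2, against 10.6 and 32.9 in the sham pools, at least 20.1-fold lower (adjusted p = 0.0352, limma). Retreg3, a receptor for autophagy of the endoplasmic reticulum, stood at 20.3 in TBI replicate 1 and was not above background in TBI replicate 2, against 13.4 and 14.1 in the sham pools, at least 14.7-fold lower. Aars2, a mitochondrial tRNA synthetase, and Bcl2l12, a BCL2 relative, followed the same pattern, at least 8.13-fold and 7.29-fold lower in TBI replicate 2. In each of these genes TBI replicate 1 lay within 3-fold of the sham mean.

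Another gene was called upward in TBI replicate 2. Ttr, the thyroxine carrier made by the choroid plexus, stood at 144 there and was not above background in TBI replicate 1 or in the sham pools, at least 188-fold higher (adjusted p = 0.0353, limma). In the other 15 pools of the series it lay between 0.126 and 7.73. A list of 20 choroid plexus genes was therefore added after the values of Ttr were seen, of which 8 were tested and 12 were on the array but not kept. Of the 8, 3 lay over 2-fold higher and outside both sham pools in TBI replicate 2 (28.6% of all named genes) and 0 in TBI replicate 1 (9.73% of all). Ttr, which prompted the list, is 1 of the 3. Mfrp stood at 2.27 and 23.5 in the TBI pools, against 1.33 and 1.98 in the sham pools, and Calml4 at 4.53 and 32.5, against 3.97 and 7.37. The summed level of the 8 was 28.2 and 225 in the TBI pools, against 32.1 and 37.2 in the sham pools. Ttr supplies most of the level in TBI replicate 2, and without it the sums were 28.04 and 81.6 in the TBI pools, against 31.9 and 36.95 in the sham pools. The part of choroid plexus RNA in the other differences of TBI replicate 2 was not tested.

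**Figure D5:**
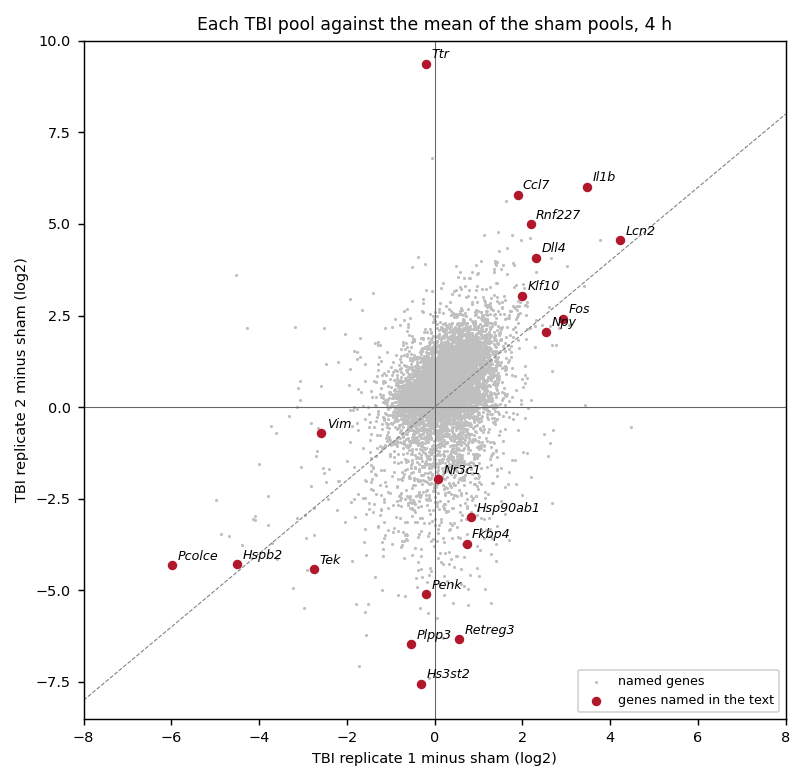
Log2 difference from the mean of the sham pools of TBI replicate 1 (horizontal axis) and TBI replicate 2 (vertical axis) for each named gene, with genes described in the text in red and the dashed line where both pools differ alike. Il1b, Lcn2 and Klf10 lie to the upper right, Pcolce, Hspb2 and Tek to the lower left, and Ttr, Plpp3 and Hs3st2 lie along the vertical axis, far from sham in TBI replicate 2 only.

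Whether the injury effect differs at 24 h was tested as the difference of the TBI minus sham differences at the 2 times. No probe of 17622 passed (0% at an adjusted p of 0.05, limma), and 419 (2.38%) had an unadjusted p under 0.05. With 2 pools in each group and pools as far apart as the TBI pools at 4 h, this does not show that the effects were alike. How large a difference between the times could be detected was not tested.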

How the data were processed

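RNA of 16 pools from 8 groups had been hybridised to 32 one-colour rat CodeLink arrays. The authors' scanner reports give a raw spot intensity and a quality flag per spot (CodeLink Expression Analysis 4.1.0.29054), and their deposited value table holds the same arrays' intensity divided by the array median. How local background was treated is not given in the sources used here, and intensities below 0 occur.

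Each raw intensity was divided by its array's median, raised to a floor of 0.1 and put on the log2 scale. Masked and irregular spots were left out and the 2 arrays of a pool averaged. Of 33849 probes 17661 were kept, each above background on the 4 arrays of some group, and 17639 gave a difference. The small number of arrays limits the precision. Pools of all 8 groups were fitted in limma 3.58.1 (R 4.3.3), with p-values adjusted by Benjamini-Hochberg and a threshold of 0.05, first with the TBI pools together and then with each against the sham pools. The fit was tested on simulated data.

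Gene names came from the platform table, updated by gene number, for 16932 probes. A gene not above background in a group was given a bound against the lowest signal above background on each array. Genes were named by a rule: the 12 with the widest gap between pools in each direction, the 4 members of each list with the largest difference and all 5 corticosteroid genes tested, and the 6 genes with the smallest p in each TBI replicate where called. The rule ran over 1 probe a gene, and 2 genes that it names are not reported here. It, the gene lists and the members were chosen with earlier results of these data known. Slide run was read from the slide numbers. Figures were drawn with matplotlib 3.10.9.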

Additional observations from a re-analysis of the deposited data

How the results depend on the processing

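The main fit assumed no pairing by replicate number, and the TBI and sham gaps between replicates correlated at r = 0.286 over probes. With 2 pools a side, the count of probes called for TBI against sham was 0. It was 1 with array b alone and 1 with all arrays and the pool as a random block. It was 2 with only the 4 h groups fitted, and 0 with the replicate number as a block. Leaving out a pool gave 0 to 47, with 47 without TBI replicate 1 and 1 without sham replicate 2. For TBI replicate 2 the count was 47, and it was 0 with a floor of 0.5, 0 with probes above background on all 8 arrays, 183 with all arrays, 0 in a fit of TBI and sham alone, 141 with only the 4 h groups fitted, 1 with the replicate block and 0 (without sham replicate 1) to 10 (without sham replicate 2) when a sham pool was left out. Counts for TBI replicate 1 stayed at 0.

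Probes over 2-fold apart with separate pools numbered 2478 higher and 627 lower. Higher ones were 886 under quantile normalization and 792 with scaling to the 75th percentile, and 1839 to 4931 with a pool left out. Lower ones were 858 under quantile normalization, 988 with the 75th percentile, 128 with probes above background on all 8 arrays, 1808 with no filter on dim probes and 664 to 2079 with a pool left out (960 without sham replicate 1, 1373 without sham replicate 2, 2079 without TBI replicate 1). A filter on both groups drops genes at background on one side.

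A slide run block takes TBI replicate 2 out of the comparison. With it, or without TBI replicate 2, the log2 difference turned to 0.083 for Nr3c1, 0.73 for Fkbp4, 0.83 for Hsp90ab1, 0.56 for Retreg3, 0.34 for Aars2, -0.20 for Ttr, -0.26 for Calml4 and -0.38 for Il1a. Without TBI replicate 1 it was -1.97 for Nr3c1, -3.73 for Fkbp4, -3.00 for Hsp90ab1, -6.33 for Retreg3, -4.28 for Aars2, 9.37 for Ttr, 2.59 for Calml4 and 0.61 for Il1a, and these are the ends of the range over pools left out. By the probe used, Il1a also turned to -0.18 under quantile normalization, -0.25 with the 75th percentile, -0.017 with array a alone and -0.04 without sham replicate 2. The values of Nr3c1, Retreg3, Aars2 and Ttr rest on pools not above background. The causes were not tested. Of 148 named genes 140 kept their direction in every alternative run. Most were named for a wide gap or a large difference in these same data, so the count is no test of robustness. It leaves out Stat3, which the rule also names. The log2 difference of Stat3 was 0.11 over both TBI pools and -1.19 without TBI replicate 1. Without TBI replicate 1, Il1b, Rnf227, Ttr, Mfrp, Plpp3, Retreg3, Hs3st2, Aars2 and Bcl2l12 passed the threshold, as did Cd14 without sham replicate 2 (adjusted p = 0.038, limma), where the sham pool that remained was not above background, and Hspb2 with only the 4 h groups fitted. Background correction by normexp was not run, since it needs spot means and local backgrounds, which were not analysed here, and a slide run block could not be fitted for TBI replicate 2.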
